A study of Homo sapiens with 12 samples.

Results

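Histone genes fall into 2 kinds, and both were followed here in FaDu cells, a human squamous carcinoma line of the hypopharynx, with and without the innate immune adaptor STING and with and without ionizing radiation. The members were the rows whose symbol begins with HIST1H, HIST2H, HIST3H, HIST4H, H2AF, H3F or H1F, without symbols that end in P or in P and digits. The rule named 103 of 58288 rows, and 77 of these reached 0.5 TPM (a level per transcript length, scaled to 1000000 in each library) in at least 3 of 12 libraries. The kept rows were 60 cluster genes, 11 variant genes, 5 pseudogenes (HIST1H2APS4, HIST2H2BC, HIST2H2BA, HIST1H3PS1 and HIST1H2BPS2) and 1 antisense gene (H1FX-AS1), and the cluster and variant genes are described apart.

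All cells carried Cas9 and 1 guide RNA delivered by lentivirus with antibiotic selection: a non-targeting guide (NT2; STING WT) or a guide against TMEM173, the gene of STING (A63; STING KO). The irradiated groups (RT) received 4 daily fractions of 2 Gy and the others (0Gy) none, with 3 libraries in each of the 4 groups. Each genotype was thus 1 guide in 1 cell line, so the effect of STING loss and any other difference between these transduced cultures cannot be told apart, and p-values measure only the spread between the deposited libraries. Whether the 3 libraries of a group were separate cultures is not stated in the sources used here. Nor is the time from the last fraction to harvest, so the radiation effects cannot be placed as early or late. TMEM173 itself lay between 21.1 and 26.1 TPM in the 6 STING WT libraries and between 5.18 and 7.41 TPM in the 6 STING KO libraries, with log2 fold changes of -1.77 (SE 0.11) without and -1.60 (SE 0.11) with irradiation. Squamous epithelial markers summed to 6425 to 9049 TPM per library, against 6.4 to 9.36 TPM for 6 fibroblast markers and 2.62 to 4.59 TPM for 6 leukocyte markers.

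Cluster histone genes, also called replication-dependent, supply the linker histone H1 and the core histones H2A, H2B, H3 and H4 that package new DNA in S phase. Their main messenger RNAs (mRNAs) end in a stem-loop bound by SLBP in place of a poly(A) tail, although a number of them also give polyadenylated transcripts from a signal further downstream. Variant histone genes, also called replacement histones, are transcribed outside S phase too and give polyadenylated mRNAs. They encode proteins that replace the canonical ones at particular places, such as H2A.Z at promoters. The libraries were made from RNA selected by its poly(A) tail. The TPM of a cluster gene, or of H2AFX, a variant with a stem-loop, thus cannot be read as the total amount of its mRNA. How much of it came from transcripts with and without a tail was not measured.

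The stem-loop could be read in the annotated transcripts of 27 of the 60 kept cluster genes (GENCODE release 29, GRCh38). The commonest forms and that of H2AFX are shown, because the H4 genes differ from the other core histone genes in the stem, with the 6 bases of each stem arm in capitals and the 4-base loop in lower case. The first was read in 14 cluster genes, all of the H2A, H2B or H3 families, the second in 5 H4 genes, the third in 4 H2B and H3 genes, and the last only in H2AFX among the 11 variants.

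HIST3H2A and HIST1H2AC: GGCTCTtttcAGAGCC
HIST1H4H: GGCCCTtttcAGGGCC
HIST1H2BD and HIST1H2BC: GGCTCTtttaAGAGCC
H2AFX: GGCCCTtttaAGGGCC

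In HIST3H2A the annotated transcript ran 390 bases past the stem-loop, in HIST1H2AC 1128 bases, in HIST1H4H 1655 bases and in H2AFX 1044 bases. A poly(A) signal (AATAAA or ATTAAA, on the transcript strand) began within the last 40 bases of an annotated transcript in 18 cluster genes, 17 of which also held the stem-loop, and in all 11 variants. The only annotated transcript of HIST1H4J ended 6 bases after the stem-loop, so its match need not be a signal downstream of it. The 33 cluster genes without a stem-loop had models with a median length of 393 bases, and the models of HIST1H1C (642 bases) and HIST1H2BK (381 bases) were among them. Those 2 models hold the coding sequence alone, so the 3′ end of these genes could not be read.

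Promoter windows of RefSeq (GRCh38.p14), 250 bases before to 50 bases after each start, matched 63 of the 77 kept members. A CCAAT box (CCAAT on either strand) was present in 34.6% of all 35116 windows and in all windows of cluster H1, H2A, H2B and H3 genes, but in 2 of 10 windows of cluster H4 genes. The octamer known from H2B genes (ATTTGCAT, either strand) was in 1.77% of all windows, in 14 of 19 H2B windows and in 10 of 13 H2A windows, which partly overlap because H2A and H2B genes often lie head to head. The H1 box (AAACACA, either strand) was in 5.64% of all windows and in all 5 cluster H1 windows, and TATAAA was in 11.5% of all windows and 65.5% of cluster windows. The core of the interferon-stimulated response element (GAAA followed after any 2 bases by GAAA, either strand) was in 3.57% of all windows, in 5 of 58 cluster windows and in none of 13 variant windows. A match is a description of letters and does not show binding.

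The 150 bases before the start are given for the 3 cluster genes whose level was called lower in STING KO cells in at least 1 comparison, with CCAAT, octamer, H1 box and TATAAA letters of either strand in capitals. HIST1H1C is at chr6:26056471-26056620, HIST3H2A at chr1:228457874-228458023 and HIST1H2BK, from the first of its 2 windows, at chr6:27146856-27147005, all on the minus strand and written 5′ to 3′ along the gene.

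HIST1H1C: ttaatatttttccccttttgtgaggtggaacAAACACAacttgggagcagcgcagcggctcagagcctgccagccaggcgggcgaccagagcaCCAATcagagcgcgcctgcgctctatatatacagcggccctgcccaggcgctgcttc
HIST3H2A: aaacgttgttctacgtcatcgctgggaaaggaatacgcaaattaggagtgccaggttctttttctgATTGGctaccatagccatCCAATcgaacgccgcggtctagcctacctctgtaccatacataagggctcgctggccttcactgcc
HIST1H2BK: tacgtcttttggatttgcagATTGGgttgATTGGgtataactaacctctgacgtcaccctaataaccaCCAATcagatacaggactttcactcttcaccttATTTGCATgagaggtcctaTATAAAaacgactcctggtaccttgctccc

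Levels differed widely within the cluster class. The mean over 12 libraries ran from 0.718 TPM (HIST2H3D, an H3 gene) to 134.6 TPM (HIST1H1C, a somatic linker histone), with a median of 5.12 TPM. Only 11 genes reached 10 TPM, and these carried 71.9% of the summed mean level. They were HIST1H1C, the H2A genes HIST1H2AC, HIST3H2A and HIST1H2AM, the H2B genes HIST1H2BK, HIST1H2BD, HIST1H2BC, HIST1H2BH, HIST1H2BJ and HIST1H2BG, and the H4 gene HIST1H4H.

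Of these 11 genes 7 had an annotated poly(A) signal at a transcript end, against 18 of all 60. The second most abundant gene of the H1 family was HIST1H1A at 9.67 TPM and that of H4 was HIST1H4A at 9.14 TPM. No cluster H3 gene reached 10 TPM, the highest being HIST1H3H at 7.02 TPM and the HIST1H3D row ENSG00000197409.7 at 6.11 TPM. A second row named HIST1H3D (ENSG00000282988.1) belongs to a longer model that spans HIST1H3D and HIST1H2AD, so reads of these 3 rows may have been split between them. In 10 cluster genes at least 50% of the 100-base windows of the longest transcript occurred in another histone gene, among them HIST2H4A, HIST1H4J and HIST1H2AM, and their levels are uncertain for that reason.

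Variant genes were more abundant, with a median of 207.4 TPM. H2AFZ, which encodes the H2A.Z variant found at promoters, was highest at 871.6 TPM, followed by H1F0 (520.4 TPM), a linker histone known from differentiated cells, and by H3F3B (401.0 TPM) and H3F3A (360.0 TPM), which both encode H3.3. H1FX (219.8 TPM), H2AFJ (207.4 TPM), H2AFX (194.3 TPM), H2AFY (173.1 TPM), H2AFV (131.9 TPM) and H2AFY2 (126.9 TPM) came next. H3F3C, an H3F3 gene copy made by retrotransposition, was lowest at 0.565 TPM and passed the filter in 7 libraries. Just outside the filter lay the near-identical copy HIST2H2AA4, with a mean of 0.312 TPM and 1 library at the floor. In this order the 12 libraries of neighbouring genes overlapped except between H2AFZ and H1F0, H3F3A and H1FX, and H2AFY2 and H3F3C. Compared within each library, H2AFY was above H2AFV in all 12. The order of the other overlapping neighbours changed between libraries and is not resolved.

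**Figure D1:**
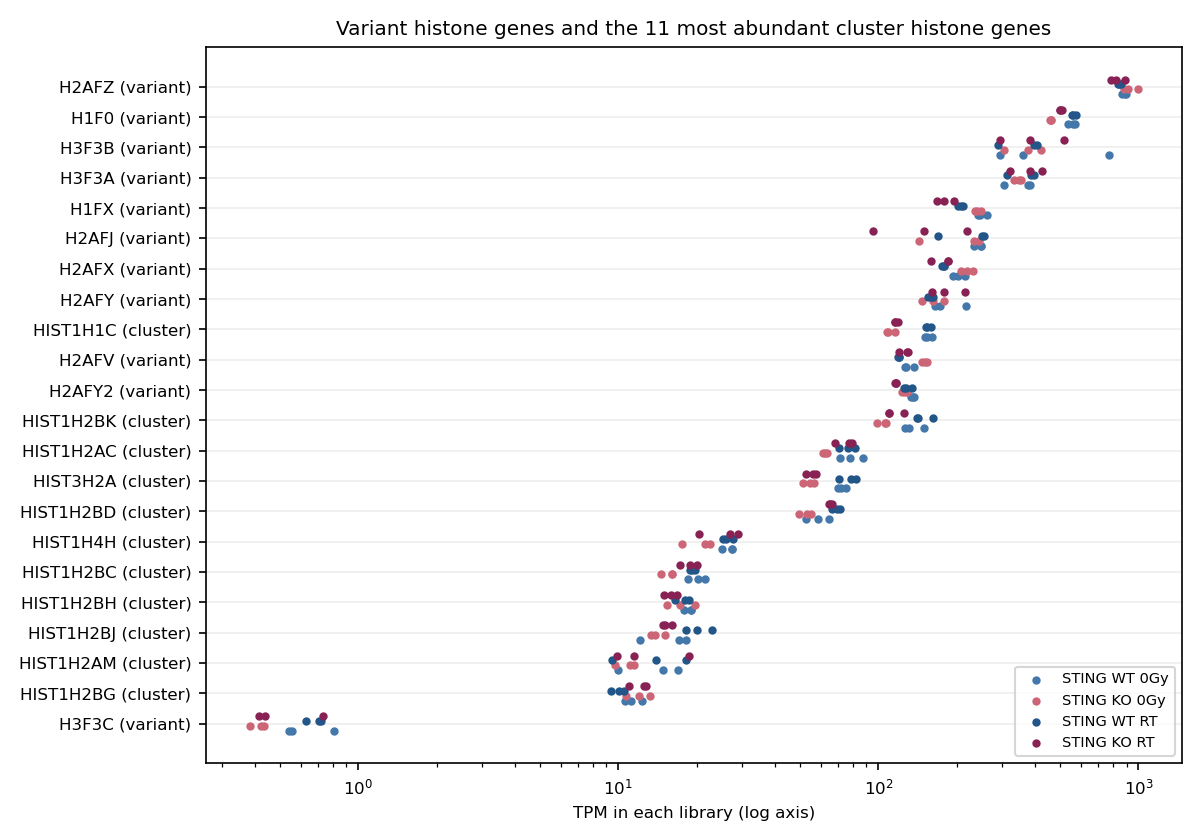
TPM (log axis) in each of the 12 libraries for the 11 variant genes and the 11 cluster genes of mean TPM 10 or more, ordered by mean and coloured by group. All variants but H3F3C lie near or above the most abundant cluster genes, HIST1H1C and HIST1H2BK, and H3F3B and H2AFJ spread widely within groups.

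The summed TPM of the 60 cluster genes was lower in STING KO than in STING WT cells at both doses. Without irradiation it was 889.5, 788.8 and 848.8 in the 3 STING WT libraries and 642.5, 689.7 and 717.9 in the 3 STING KO libraries, a mean of 81.1% of STING WT. After irradiation it was 827.0, 911.7 and 846.1 against 738.1, 794.1 and 670.5, or 85.2%. The groups did not overlap at either dose.

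The 11 genes of 10 TPM or more had the tighter sums. These were 634.7, 592.5 and 593.8 in STING WT 0Gy against 461.3, 483.2 and 478.8 in STING KO 0Gy (78.2%), and 635.1, 647.0 and 618.7 in STING WT RT against 514.1, 553.1 and 516.6 in STING KO RT (83.3%). HIST1H1C, HIST1H2BK and HIST3H2A, described 1 by 1 below, held most of this gap at both doses. Their means were 155.0, 135.8 and 72.3 TPM in STING WT 0Gy against 111.0, 104.0 and 54.1 in STING KO 0Gy. After irradiation they were 155.6, 148.4 and 77.2 in STING WT against 116.8, 114.7 and 55.5 in STING KO. These genes also held most of the summed TPM of the 11 in every group, and they were picked by their calls in the same libraries. The sums thus cannot show how far the difference was shared by the whole class. The sum over the 49 less abundant genes overlapped between the genotypes, with 196.4 to 255.0 in STING WT 0Gy and 181.2 to 239.0 in STING KO 0Gy. Its spread within groups went with a list of RNAs that carry no poly(A) tail (24 symbols on 26 rows, such as RNA polymerase III transcripts and small nuclear RNAs), whose sum ran from 383.3 to 727.6 TPM: the order of the 3 libraries was the same for both sums in 3 of 4 groups, all but STING WT 0Gy. In STING KO RT, for example, the less abundant cluster genes summed to 224.0, 241.0 and 153.9 TPM and the untailed RNAs to 575.7, 616.1 and 383.3 TPM. Their summed mean in STING KO cells was 93.5% of STING WT without and 85.6% with irradiation, beside 88.7% and 90.5% for the less abundant cluster genes, and 0 of 17 tested were called (0 and 1 at an unadjusted limma p under 0.05). The part of untailed RNA in the cluster gene values was not tested.

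The summed variants lay at 3277 to 3612 TPM in STING WT 0Gy, 3161 to 3242 in STING KO 0Gy, 3068 to 3225 in STING WT RT and 2990 to 3161 in STING KO RT. The highest of these libraries, STING WT 0Gy replicate 1, was also the one with the outlying H3F3B value given further on.

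**Figure D2:**
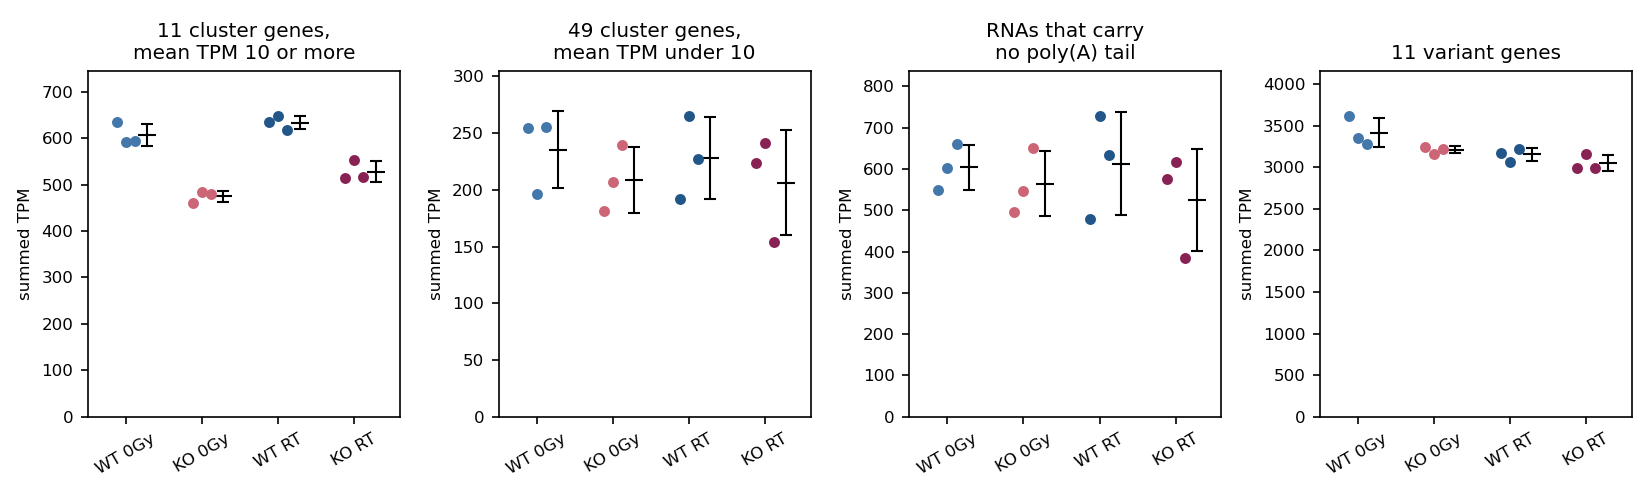
Summed TPM per library (points) with the group mean and SD (black bars, n = 3) for abundant cluster genes, less abundant cluster genes, RNAs without a poly(A) tail and variants. The abundant cluster genes separate STING WT from STING KO at both doses (592.5 to 647.0 against 461.3 to 553.1), while the less abundant cluster genes and the untailed RNAs spread within every group. Most of the gap in the abundant cluster genes is in HIST1H1C, HIST1H2BK and HIST3H2A.

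The KO comparisons asked how histone transcripts differ without STING, first at rest. In unirradiated cells 2 of 60 cluster genes, HIST1H1C and HIST3H2A, and 1 of 11 variants, H1F0, were lower in STING KO cells, and none was higher (limma on log2(TPM + 1), Benjamini-Hochberg adjusted p under 0.05). Over all 18370 genes tested 1.44% passed this test. The median log2 fold change was -0.19 over the cluster genes and -0.10 over the variants, beside -0.02 over all genes, and 44 of 60 cluster genes had a fitted value below 0, as did 10167 of all 18370 genes. Leaving out 1 library moved the cluster median over a range from -0.28 (without STING WT 0Gy replicate 2) to -0.098 (without STING KO 0Gy replicate 1), and it was -0.13 without STING WT 0Gy replicate 1.

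In 12 of 60 cluster genes every STING KO library lay below every STING WT library, where 11.4% of all genes did. By family the median was -0.36 for H1 (5 genes), -0.32 for H2A (14 genes), -0.14 for H2B (17 genes), -0.14 for H3 (12 genes) and 0.03 for H4 (12 genes). Among the 11 abundant cluster genes the median was -0.33 and 10 were below 0, while for all 9390 genes of mean TPM 10 or more the median was -0.01.

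In irradiated cells 3 of 60 cluster genes (HIST1H1C, HIST3H2A and HIST1H2BK) and again H1F0 were lower in STING KO cells, and no member was higher. Over all genes tested 3.08% passed. The cluster median was -0.11 and the variant median -0.02, beside -0.02 for all genes, and 43 of 60 cluster genes had a fitted value below 0, as did 9888 of all genes. The cluster median was -0.02 without STING WT RT replicate 2 and -0.03 without STING KO RT replicate 3, near that of all genes, and -0.20 without STING WT RT replicate 1 and -0.18 without STING KO RT replicate 2. In 10 of 60 cluster genes every STING KO library lay below every STING WT library, where 13.8% of all genes did. By family the median was -0.23 for H1, -0.17 for H2A, -0.12 for H2B, -0.06 for H3 and -0.04 for H4. The 11 abundant cluster genes had a median of -0.08, with 10 below 0, and all genes of mean TPM 10 or more had -0.01. The 2 KO comparisons share no library. A fitted value below 0 in both was found for 35 of 60 cluster genes (58.3%) and for 35.2% of all genes tested.

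Linker histone HIST1H1C (ENSG00000187837.3, chr6:26055787-26056428) had the smallest adjusted p of any member in both. Its TPM was 151, 153 and 161 in STING WT 0Gy and 109, 116 and 108 in STING KO 0Gy. After irradiation it was 160, 152 and 154 in STING WT and 115, 119 and 116 in STING KO. The genotypes did not overlap, and the radiation effect was 0.01 in STING WT and 0.07 in STING KO cells, neither past the threshold. The KO effect (log2 fold change) was -0.48 (SE 0.04, adjusted p = 0.000235) without and -0.41 (SE 0.04, adjusted p = 0.000482) with irradiation, so that the STING KO mean was 71.6% and 75.0% of the STING WT mean.

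HIST3H2A (ENSG00000181218.5, chr1:228456979-228457873), a core H2A gene of a small cluster outside chromosome 6, followed the same pattern. It measured 69.7, 72.1 and 75.1 TPM in STING WT 0Gy, 56.4, 51.5 and 54.4 in STING KO 0Gy, 78.6, 70.8 and 82.1 in STING WT RT and 56.1, 57.6 and 52.7 in STING KO RT. All 6 STING KO libraries were below all 6 STING WT libraries. Its KO effect was -0.41 (SE 0.06, adjusted p = 0.00945) and -0.47 (SE 0.06, adjusted p = 0.00296). Its head-to-head neighbour HIST3H2BB, an H2B gene whose annotated start is 234 bases away, had values of -0.18 (adjusted p = 0.559) and -0.03 (adjusted p = 0.93).

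HIST1H2BK (ENSG00000197903.7, chr6:27146418-27146798), a core H2B gene, measured 150, 131 and 127 TPM in STING WT 0Gy against 99.1, 106 and 107 in STING KO 0Gy, and 142, 163 and 140 in STING WT RT against 109, 125 and 110 in STING KO RT. The groups were apart at both doses. The log2 fold change was -0.38 (SE 0.08, adjusted p = 0.0581) without and -0.37 (SE 0.08, adjusted p = 0.0411) with irradiation, 1 just outside and 1 just inside the threshold. The second call was held without STING WT 0Gy replicate 1, STING WT 0Gy replicate 3 or STING KO RT replicate 2, and lost without any of the other 9 libraries (adjusted p up to 0.138), and the first value passed without STING WT RT replicate 2 (adjusted p = 0.0464). Its neighbour HIST1H2AH, 331 bases away, had log2 fold changes of -0.10 and 0.23.

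HIST1H2AC and HIST1H2BC, an H2A and an H2B gene that start 219 bases apart on opposite strands, had similar values in each comparison. HIST1H2AC measured 86.9, 77.9 and 71.3 TPM in STING WT 0Gy, 63.3, 61.1 and 62.5 in STING KO 0Gy, 81.0, 76.2 and 70.5 in STING WT RT and 67.8, 77.3 and 79.3 in STING KO RT. HIST1H2BC measured 21.5, 20.2 and 18.5 in STING WT 0Gy, 16.1, 14.6 and 16.1 in STING KO 0Gy, 18.9, 19.7 and 19.1 in STING WT RT and 18.8, 17.3 and 20.1 in STING KO RT. In both genes the 3 STING KO 0Gy libraries were below the other 9.

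Neither passed the threshold. The KO effect without irradiation was -0.33 (SE 0.08, adjusted p = 0.105) for HIST1H2AC and -0.34 (SE 0.08, adjusted p = 0.0631) for HIST1H2BC, and with irradiation -0.02 and -0.04. The radiation effect in STING KO cells was 0.26 (adjusted p = 0.138) and 0.25 (adjusted p = 0.119), and it shares the low STING KO 0Gy libraries with the first comparison. The head-to-head pair HIST2H2BE and HIST2H2AC was below 0 in both KO comparisons too (-0.35 and -0.28 for HIST2H2BE, -0.42 and -0.35 for HIST2H2AC), and none of these 4 values passed the threshold. HIST1H4H, the most abundant H4 gene, had -0.36 (adjusted p = 0.226) and -0.06 (adjusted p = 0.861).

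The linker histone variant H1F0 (ENSG00000189060.5, chr22:37805093-37807436) measured 558, 572 and 536 TPM in STING WT 0Gy against 460, 460 and 456 in STING KO 0Gy, and 576, 560 and 556 in STING WT RT against 499, 501 and 510 in STING KO RT. All STING KO libraries were below all STING WT libraries. The log2 fold change was -0.28 (SE 0.03, adjusted p = 0.00256) without and -0.16 (SE 0.03, adjusted p = 0.0323) with irradiation. The second call was held without STING WT 0Gy replicate 1, 2 or 3 or STING KO 0Gy replicate 1 and lost without any of the other 8 libraries (adjusted p up to 0.122). Its difference between the radiation effects was 0.11 (adjusted p = 0.752).

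The other variants did not pass in either KO comparison. H2AFV, the second H2A.Z gene, was nearest without irradiation, at 128, 127 and 137 TPM in STING WT 0Gy and 153, 151 and 147 in STING KO 0Gy (0.20, SE 0.05, adjusted p = 0.0705), in the opposite direction to H1F0. H2AFY2, which encodes a macroH2A, had -0.10 (adjusted p = 0.337) and -0.15 (adjusted p = 0.0869), with every STING KO library below every STING WT library at each dose. H2AFZ had 0.08 and -0.02, H2AFX 0.11 and -0.01, H2AFY -0.18 and 0.21, H3F3A -0.03 and 0.04, H3F3C -0.21 and -0.15, and H1FX -0.05 and -0.20. The last value passed without STING KO RT replicate 1 (-0.25, adjusted p = 0.0451).

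H3F3B and H2AFJ were too variable to place. H3F3B measured 773, 361 and 293 TPM in STING WT 0Gy and from 288 to 516 TPM in the other 9 libraries, with KO effects of -0.25 and 0.10 (SE 0.33) and radiation effects of -0.27 and 0.08. H2AFJ measured 95.2, 150 and 219 TPM in STING KO RT, with KO effects of -0.27 and -0.59 (SE 0.29) and radiation effects of -0.13 and -0.46. A difference of the size seen for H1F0 could not be detected in these 2 genes at this spread.

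**Figure D3:**
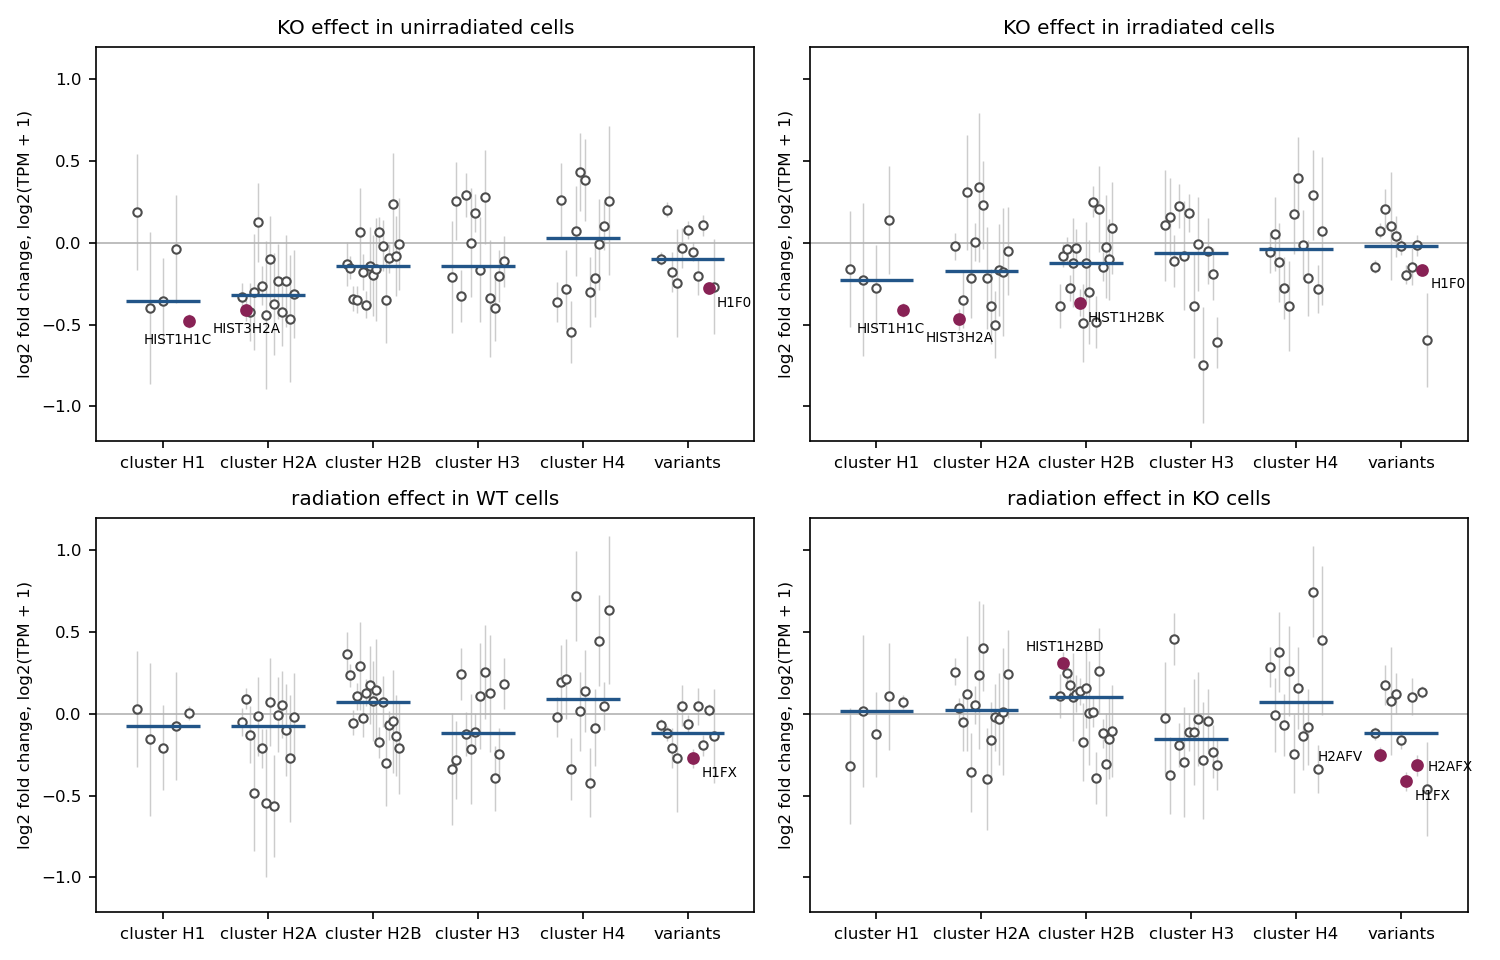
Log2 fold change (points) and SE (grey bars) of each kept cluster gene by family and of each variant in 4 comparisons, with blue lines at the medians and filled points for genes past the threshold. In unirradiated STING KO cells the H1 and H2A medians are lowest (-0.36 and -0.32, against -0.23 and -0.17 in irradiated cells), and the filled variants are below 0 in all 4 panels.

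The radiation comparisons asked how histone transcripts differ after the 4 fractions in each genotype. In STING WT cells 0 of 60 cluster genes and 1 of 11 variants, H1FX, passed the threshold, where 2.93% of all genes did. At an unadjusted p under 0.05 there were 3 cluster genes, HIST1H2BD, HIST1H2BJ and HIST2H4A, all with a value above 0, where 17.1% of all genes were at such a p. In 4 cluster genes every irradiated library lay above every unirradiated one and in 5 below, where 14.2% and 9.38% of all genes did. Among the 11 variants 0 lay above in this way and 5 below, and 3 were at an unadjusted p under 0.05, all with a value below 0. The cluster median was -0.02 and the variant median -0.12, beside 0.02 for all genes. Of the 11 abundant cluster genes 5 were above 0 and 6 below, with a median of -0.02, beside 0.01 for all genes of mean TPM 10 or more.

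In STING KO cells 1 of 60 cluster genes, HIST1H2BD, was higher after irradiation and 3 of 11 variants, H1FX, H2AFV and H2AFX, were lower, where 2.97% of all genes passed in either direction. In 6 cluster genes every irradiated library lay above every unirradiated one and in 1 below, where 13.1% and 9.8% of all genes did. Among the 11 variants 1 lay above in this way and 4 below. The cluster median was -0.01, the variant median -0.12 and that of all genes 0.02. Among the 11 abundant cluster genes 10 were above 0, with a median of 0.14, where 4928 of 9390 genes of mean TPM 10 or more were above 0 with a median of 0.01. Leaving out 1 library turned the sign of the cluster median of all 60 genes in both genotypes, to 0.041 without STING WT RT replicate 1 and to 0.12 without STING KO RT replicate 3.

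H1FX (ENSG00000184897.5, chr3:129314771-129316277), a linker histone variant, measured 247, 242 and 263 TPM in STING WT 0Gy and 207, 202 and 212 in STING WT RT, and 248, 235 and 240 in STING KO 0Gy and 196, 179 and 168 in STING KO RT. Irradiated libraries were below unirradiated ones in both genotypes. Its radiation effect was -0.27 (SE 0.06, adjusted p = 0.0335) in STING WT and -0.41 (SE 0.06, adjusted p = 0.00449) in STING KO cells, and the difference between these was -0.14 (SE 0.08, adjusted p = 0.840). The call in STING WT cells was held without STING KO 0Gy replicate 1 or 2 or STING KO RT replicate 1 or 3 and lost without any of the other 8 libraries (adjusted p up to 0.110).

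H1FX-AS1 overlaps H1FX on the opposite strand. The strand setting of the counting is not given in the sources used here, so reads of the 2 genes may not be told apart. H1FX-AS1 measured 7.48 to 8.13 TPM in STING WT 0Gy, 7.02 to 8.21 in STING KO 0Gy, 5.05 to 6.30 in STING WT RT and 7.21 to 9.35 in STING KO RT. It was thus lower after irradiation in STING WT libraries (-0.43, adjusted p = 0.0683) without passing the threshold, and had 0.04 in STING KO cells. Its KO effect in irradiated cells was 0.47 (adjusted p = 0.0515), with no overlap between the groups.

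H2AFX (ENSG00000188486.3, chr11:119093854-119095467) encodes H2A.X, the variant phosphorylated around DNA breaks, and the values here are of its transcript, not of the phosphorylated protein. H2AFX also holds a stem-loop, so in this poly(A)-selected RNA its values cannot be read as its total mRNA. It measured 194, 202 and 215 TPM in STING WT 0Gy and 179, 175 and 179 in STING WT RT, and 231, 208 and 219 in STING KO 0Gy and 185, 185 and 160 in STING KO RT. The doses did not overlap in either genotype. The radiation effect on H2AFX was -0.19 (SE 0.06, adjusted p = 0.161) in STING WT and -0.31 (SE 0.06, adjusted p = 0.0296) in STING KO cells, with a difference of -0.12 (adjusted p = 0.872). The call was lost without any of STING KO 0Gy replicates 1, 2 and 3 and STING KO RT replicates 2 and 3 (adjusted p up to 0.0992).

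H2AFV measured 120, 120 and 119 TPM in STING WT RT and 130, 129 and 120 in STING KO RT, below its unirradiated values given above. The log2 fold change was -0.12 (adjusted p = 0.215) in STING WT and -0.25 (SE 0.05, adjusted p = 0.0195) in STING KO cells, and the second call was lost without any of STING KO 0Gy replicates 1 and 2 and STING KO RT replicate 3 (adjusted p up to 0.0690). H2AFZ had -0.06 and -0.16 (adjusted p = 0.620 and 0.154). Among the remaining variants the radiation effects were -0.07 and -0.12 for H2AFY2, -0.21 and 0.18 for H2AFY, 0.02 and 0.13 for H1F0, 0.05 and 0.12 for H3F3A, and 0.05 and 0.11 for H3F3C, none past the threshold.

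HIST1H2BD (ENSG00000158373.8, chr6:26158146-26171349), a core H2B gene with an annotated polyadenylated transcript, was the only cluster gene called for radiation. It measured 64.6, 58.8 and 52.6 TPM in STING WT 0Gy and 71.2, 69.6 and 66.2 in STING WT RT, and 49.5, 53.2 and 55.0 in STING KO 0Gy and 64.8, 64.9 and 66.2 in STING KO RT. Irradiated libraries were above unirradiated ones in both genotypes. The radiation effect on HIST1H2BD was 0.24 (SE 0.07, adjusted p = 0.121) in STING WT and 0.31 (SE 0.07, adjusted p = 0.0470) in STING KO cells. The latter call was held without STING WT 0Gy replicate 1 or 3 and lost without any of the other 10 libraries (adjusted p up to 0.142).

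**Figure D4:**
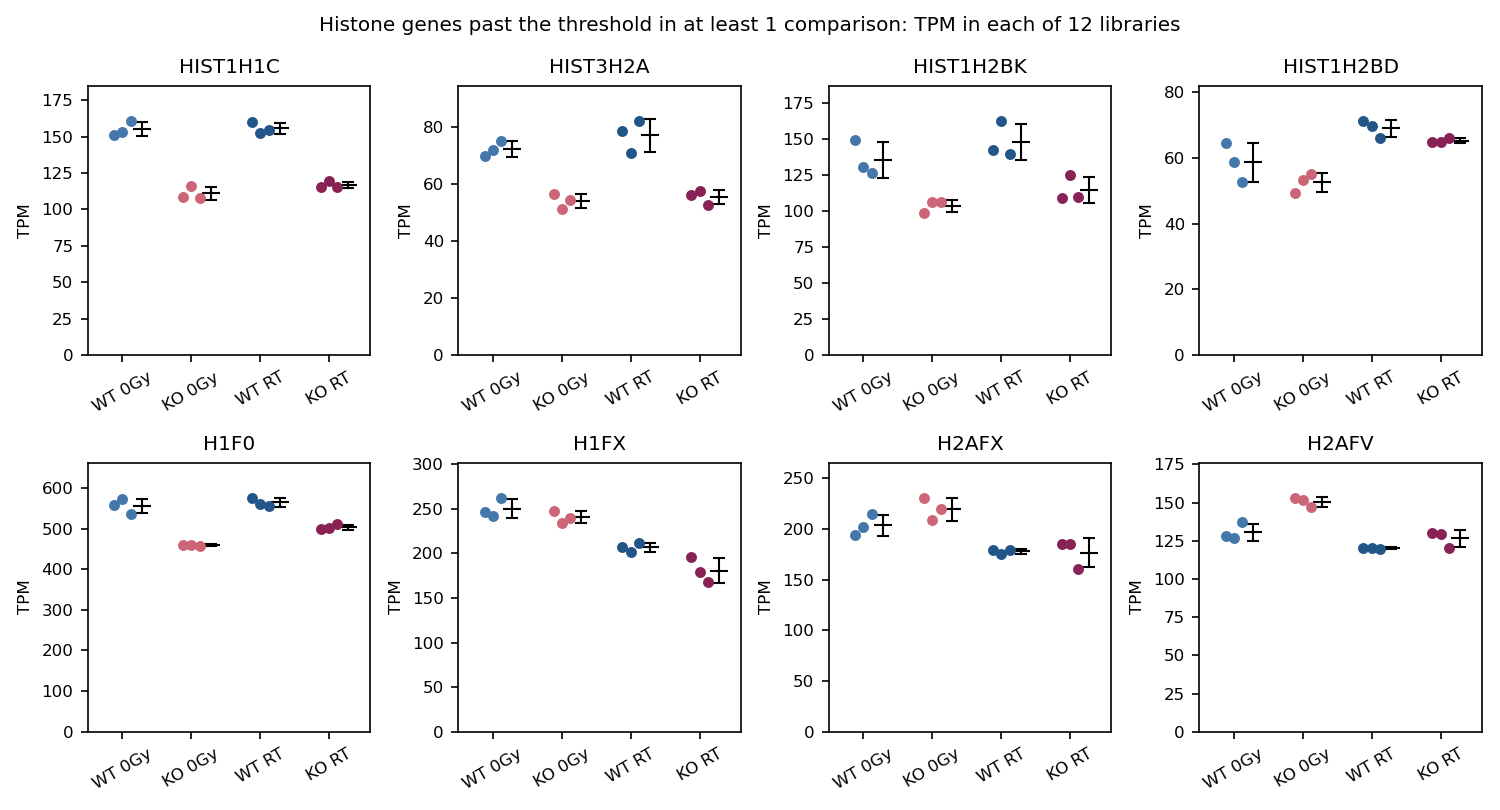
TPM in each library (points) with the group mean and SD (black bars, n = 3) for the 8 members past the threshold in at least 1 comparison, on axes that start at 0. HIST1H1C, HIST3H2A, HIST1H2BK and H1F0 libraries lie lower in STING KO than in STING WT at both doses, while H1FX, H2AFX and H2AFV are lower and HIST1H2BD higher after irradiation.

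The test of whether radiation acted differently in the 2 genotypes called 0 of 60 cluster genes and 0 of 11 variants, where 0.0163% of all genes passed. At an unadjusted p under 0.05 there were 3 cluster genes (HIST1H2AC, HIST1H2BC and the longer HIST1H3D model) and 2 variants (H2AFY and H1F0), where 6.6% of all genes were at such a p. The 95% interval of the difference ran from -0.32 to 0.04 for H1FX, from -0.27 to 0.01 for H2AFV and from -0.15 to 0.30 for HIST1H2BD.

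Genes that act on histone mRNA and protein were read beside the members. A list of 16 symbols for the 3′ processing and turnover of histone mRNA matched 15 genes, and all 15 were tested. None passed in any of the 5 comparisons, a count that is not apart from the 0.0163% to 3.08% called over all genes. SLBP, which binds the stem-loop, had KO effects of -0.15 (adjusted p = 0.590) and -0.09 (adjusted p = 0.708) and radiation effects of 0.19 (adjusted p = 0.375) and 0.25 (adjusted p = 0.240). NPAT, the coactivator of cluster histone transcription, lay between -0.03 and 0.08 in these 4 comparisons. Of 25 histone chaperone genes only UBN1, a subunit of the H3.3 chaperone HIRA complex, passed, higher in irradiated STING KO cells (0.44, adjusted p = 0.0334). This count of 1 of 25 is near the 3.08% of all genes called in that comparison.

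Of 50 S phase genes none passed for the KO effect in unirradiated cells or the radiation effect in STING WT cells. The helicase subunits MCM7 (-0.24, adjusted p = 0.0101) and MCM3 (-0.16, adjusted p = 0.0381) were lower in irradiated STING KO cells, and CLSPN, which acts in the replication checkpoint, was higher after irradiation in STING KO cells (0.30, adjusted p = 0.0411). These counts, 2 of 50 and 1 of 50, are near the 3.08% and 2.97% of all genes called in those comparisons. Of 35 G2/M genes 12 were lower after irradiation in STING WT and 13 in STING KO cells, among them the mitotic kinesin KIF20A at -0.62 (adjusted p = 0.000108) and -0.56 (adjusted p = 0.000202) and the spindle protein DLGAP5 at -0.50 (adjusted p = 0.00235) and -0.60 (adjusted p = 0.000903). Over all genes 2.93% and 2.97% passed in these 2 comparisons. For the KO effect the mitotic activator CDC20 was higher without irradiation (0.27, adjusted p = 0.0118) and KIF20A with it (0.26, adjusted p = 0.0142), and 28 and 30 of the 35 had a fitted value above 0, as did 8202 and 8480 of all 18370 genes. Each was the only G2/M gene called in its comparison, where 1.44% and 3.08% of all genes were. The summed TPM in STING KO cells was 105% and 106% of STING WT for the G2/M genes and 98.6% and 99.5% for the S phase genes. By flow cytometry, the study saw no cell cycle changes in this knockout model, either unirradiated or irradiated. The share of cells in each phase was not measured in these libraries, so fewer cells of a phase and less transcript per cell cannot be told apart, and the part of the cell cycle in the histone values was not tested.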

How the data were processed

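Polyadenylated RNA was sequenced as paired-end reads. The submitters' notes name HISAT2, StringTie and DESeq2 with build hg38, without roles or order. The annotation and strand setting are not given in the sources used here. The authors deposited 1 table of TPM for 58288 genes in 12 libraries, each summing to 1000000. Depth is unknown, so no counting interval is given and no count test was used. The members and gene lists were chosen with earlier results of these data known.

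The log2(TPM + 1) values of 18370 genes with TPM of at least 0.5 in at least 3 libraries were fitted with limma 3.58.1 in R 4.3.3 (4 group means, 8 residual degrees of freedom, eBayes with trend), two-sided, with Benjamini-Hochberg adjustment over all genes and a threshold of 0.05. The 5 comparisons were KO at each dose, radiation in each genotype, and the difference between the radiation effects. Fold changes understate those of low genes because of the pseudocount of 1. The fit was tested on simulated data whose planted effects were larger than those of the called members. Its recovery of effects as small as theirs was not examined.

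Gene positions, biotypes and transcripts came from GENCODE release 29 (102 of 103 members matched by Ensembl ID) and promoters from RefSeq. Rows annotated as pseudogenes or antisense were counted apart. Named genes were TMEM173, all kept variants, cluster genes past the threshold, the 2 most abundant per family, those next to the filter, head-to-head neighbours, and list genes past the threshold (at most 6 a list) with SLBP and NPAT. H1FX-AS1, HIST2H2BE, HIST2H2AC, the abundant cluster genes beyond the first 2 of a family, and genes named for an unadjusted p fell outside that rule and were named after their values were seen. Alternatives were pseudocount, filter, scaling, trend, replicate block, fewer groups and each library left out.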

Additional observations from a re-analysis of the deposited data

How the results depend on the processing

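HIST1H1C (both KO comparisons) and HIST3H2A (irradiated cells) passed under all 9 other settings and all 12 left-out libraries. HIST3H2A and H1F0 in unirradiated cells and H1FX for radiation in STING KO cells passed without each library, and missed the threshold only when the fit held the libraries compared alone (adjusted p = 0.0534, 0.0609 and 0.0535). The other 6 calls of members were lost under at least 3 settings and without at least 3 libraries, and the cause was not tested. No called member changed direction. The longer HIST1H3D model passed in irradiated cells without STING KO RT replicate 2 (-0.76, adjusted p = 0.0378). Depth is unknown, and 3 libraries a group limit what could be called.

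When genes under a mean of 5 TPM were left out, the KO effect in unirradiated cells called 4 cluster and 2 variant genes. With no filter on low values, 0 variants were called for the KO effect in irradiated cells and for radiation in STING WT cells, 0 cluster genes for radiation in STING KO cells (variant median -0.0088), and for the difference 7 of all genes (variant median 0.059). With median-of-ratios scaling the KO effect in unirradiated cells called 2 variants and radiation in STING KO cells 0 cluster genes, and with quantile scaling the KO effect in irradiated cells called 0 variants. Without the trend, variant calls were 0 for the KO effect in irradiated cells, 0 for radiation in STING WT and 1 in STING KO cells, cluster calls 0 in the last, and 1 of all genes was called for the difference. With only the libraries compared, the KO effect called 1 cluster gene, 0 variants and 96 genes in all without irradiation and 0 variants and 237 genes with it, and radiation called 0 variants and 158 genes in STING WT and 0 cluster genes, 0 variants and 147 genes in STING KO cells. Calls of all genes that were higher made up 24.6% for the KO effect in unirradiated cells (35.7% with median-of-ratios scaling) and 55.2% for radiation in STING KO cells (44.4%).

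Same-numbered libraries did not deviate together (correlations from -0.049 to 0.060 over 18 pairs), so no shift shared by number was seen. Whether they were prepared together is not stated in the sources used here, and such correlations cannot settle it. With a replicate block, 0 variants and 360 genes in all were called for the KO effect in irradiated cells, 0 variants and 284 genes for radiation in STING WT cells, 0 cluster genes, 1 variant and 337 genes for radiation in STING KO cells, and 1 gene for the difference.

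Leaving out each library in turn gave, for the KO effect in unirradiated cells, 169 to 263 genes in all and a variant median from -0.11 to -0.053. In irradiated cells it gave 0 to 1 variants, 290 to 511 genes and a variant median from -0.10 to 0.018. Radiation called 0 to 1 variants and 230 to 486 genes in STING WT cells, and 0 to 1 cluster genes, 1 to 3 variants and 240 to 513 genes in STING KO cells, and the difference 1 to 9 genes. The cluster median ran from -0.28 to -0.098 and from -0.20 to -0.020 for the KO effect without and with irradiation, from -0.097 to 0.041 and from -0.090 to 0.12 for radiation in STING WT and STING KO cells, and from -0.092 to 0.13 for the difference, so that the last 3 had no settled sign.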
